A study of Mus musculus with 10 samples.

Results

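Blood and lymphatic endothelial genes were followed in mouse back skin stretched over a tissue expander. The set holds 32 genes that were listed by name, 27 of blood vessel or general endothelium and 5 of lymphatic endothelium (Prox1, Lyve1, Ccl21a, Mmrn1 and Pdpn). The first group is called blood genes below, although it includes genes of endothelium in general. Of the 32, 30 had a named probe set among the 19505 genes of the array, 25 blood and 5 lymphatic. Egfl7 and Rasip1 were not analysed here. A filter on low mean signal, described with the processing, left 13653 genes for testing, and 26 members passed it (21 blood and 5 lymphatic). Sox17, Sox18, Clec14a and Nos3 did not pass, so they have values here but no test.

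All samples were whole back skin of C57BL/6J mice aged 9 weeks when the experiment began, with no genetic change named in the labels. In 4 expanded samples a silicone expander under the skin had been filled step by step with phosphate-buffered saline (PBS). In 4 non-expanded samples an expander was implanted and received no PBS. Both arms were sampled at days 0, 7, 14 and 21 after the injections were complete, with 1 array a day. Skin without surgery gave 1 array in telogen, when hair follicles rest, and 1 in anagen, when hair grows. The number of animals behind an array is not in the labels, so p-values measure only the spread between these arrays. That spread takes in differences of day or hair stage and may be technical in part.

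Blood vessels are lined by endothelial cells joined through VE-cadherin and claudins, and the vessels of skin supply the dermis, the fat, the hair follicles and the thin muscle sheet under them. Lymphatic endothelial cells form a separate network that drains fluid and carries immune cells, and they depend on the transcription factor Prox1. ETS factors such as Erg and SOX factors of the Sox7, Sox17 and Sox18 group control many endothelial genes. In bulk tissue such as whole skin, fewer cells of a type and less RNA per cell cannot be told apart.

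Promoter sequences are shown first for 4 members, Eng, Apln, Cldn5 and Pdpn. They stood above both arrays without surgery on all 8 expander arrays, and their RefSeq window (GRCm38.p6, 250 bases before the start) ends at the annotated start of the gene. Capitals mark CAGGAA or AGGAAG or CCGGAA on either strand, letters that contain the GGAA core bound by ETS factors. CAGGAA and AGGAAG can overlap. Each sequence runs 5′ to 3′ on the strand of the gene. The Eng window is chr2:32646345-32646594 on the plus strand, Apln is chrX:48034854-48035103 on the minus strand, Cldn5 is chr16:18776597-18776846 on the plus strand, and Pdpn is chr4:143299565-143299814 on the minus strand.
Eng: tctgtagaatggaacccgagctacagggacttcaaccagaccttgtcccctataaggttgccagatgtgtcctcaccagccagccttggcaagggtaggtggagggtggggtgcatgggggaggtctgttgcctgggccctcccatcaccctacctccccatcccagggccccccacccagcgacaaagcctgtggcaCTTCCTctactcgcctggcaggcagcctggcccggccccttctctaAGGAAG
Apln: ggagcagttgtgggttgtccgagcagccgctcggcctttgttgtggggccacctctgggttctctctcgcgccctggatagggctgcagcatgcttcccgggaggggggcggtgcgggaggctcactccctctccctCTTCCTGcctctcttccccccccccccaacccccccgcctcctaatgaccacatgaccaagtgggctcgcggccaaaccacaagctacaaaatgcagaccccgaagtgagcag
Cldn5: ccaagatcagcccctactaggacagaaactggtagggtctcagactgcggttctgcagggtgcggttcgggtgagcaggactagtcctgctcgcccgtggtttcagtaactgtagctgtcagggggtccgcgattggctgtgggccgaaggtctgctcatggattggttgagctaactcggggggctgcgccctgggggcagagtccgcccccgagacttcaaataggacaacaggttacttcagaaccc
Pdpn: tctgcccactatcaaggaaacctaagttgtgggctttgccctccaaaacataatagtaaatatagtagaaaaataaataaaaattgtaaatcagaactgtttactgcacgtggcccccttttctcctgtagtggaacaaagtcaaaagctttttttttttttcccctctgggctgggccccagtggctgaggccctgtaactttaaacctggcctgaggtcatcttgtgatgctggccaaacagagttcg

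The Eng window held AGGAAG at 2 places, on opposite strands. In the Apln window CAGGAA and AGGAAG overlapped in a single stretch on the opposite strand, and the Cldn5 and Pdpn windows held none of the 3 forms. RefSeq windows were given for 15 of the 32 genes, 20 windows in all. CAGGAA was found in the windows of 11 of these 15 genes (12 of 20 windows), against 25.7% of all 32851 windows. AGGAAG was found for 9 genes (10 of 20 windows), against 29.5% of all windows. CCGGAA was found for 0 genes (0 of 20 windows), against 12% of all windows. AACAAT, the letters of a SOX site, was found in 4 of 20 windows, against 9.42% of all windows. These belonged to 4 genes, Emcn, Erg, Mmrn1 and Tek. The letters searched were chosen with the sequences in view, and a match is a description of letters and not a binding site.

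Signals are given as log2 values as deposited, so a difference of 1 is 2-fold. Levels of different genes were not compared, since each comes from its own probe set. Array medians lay between 6.27 and 6.45, and the median of 23 background probe sets was 5.46. Of the 30 members, 19 lay above that background level on all 10 arrays, and Sox17 and Nos3 lay at or below it on all 10. Pecam1, Cdh5, Tek, Tie1 and Erg, of the blood or general endothelial group, were above it on every array, as were Prox1 and Lyve1 of the lymphatic group. The whole skin label fitted its markers: the mean of 12 keratinocyte genes lay from 13.14 to 15.05 and that of 9 fibroblast genes from 13.50 to 16.12. The lowest correlation between any arrays was 0.891 (Pearson r across probe sets, which are not independent). The mean of 12 hair shaft genes was 16.20 in anagen and 11.79 in the expanded sample of day 7, and from 4.49 to 7.62 on the other 8 arrays.

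The blood endothelial genes were lowest on average in skin without surgery, and over an expander their mean ranged more widely over the days of an arm than between the arm means. The mean signal of the 25 blood genes was 7.09, 8.43, 7.22 and 7.85 in non-expanded skin at days 0, 7, 14 and 21. In expanded skin it was 8.16, 7.34, 7.49 and 7.90 on the same days, against 6.74 in telogen and 6.33 in anagen. All 8 expander arrays lay above both arrays without surgery, and the 2 arms overlapped. The lymphatic mean was 10.65, 10.20, 10.13 and 11.02 in non-expanded skin, 10.70, 10.12, 10.59 and 10.53 in expanded skin, 9.66 in telogen and 8.01 in anagen. The lymphatic means of the 2 arms overlapped too, and anagen lay 1.46 below telogen in the median of the 5 genes.

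The non-expanded array of day 7 was the highest of all 10 for 12 of the 25 blood genes, against 10.3% of all genes tested. The expanded array of day 0 was the highest for 5, against 4.91%. Anagen was the lowest for 13 of the 25, against 25.3%, and for 5 of the 5 lymphatic genes. Within the non-expanded arm, day 7 was highest for 19 of 25 and day 0 lowest for 15. Within the expanded arm, day 0 was highest for 15 of 25 and day 7 lowest for 15. The share of all genes was not computed within an arm, so these within-arm counts have no background beside them.

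**Figure D1:**
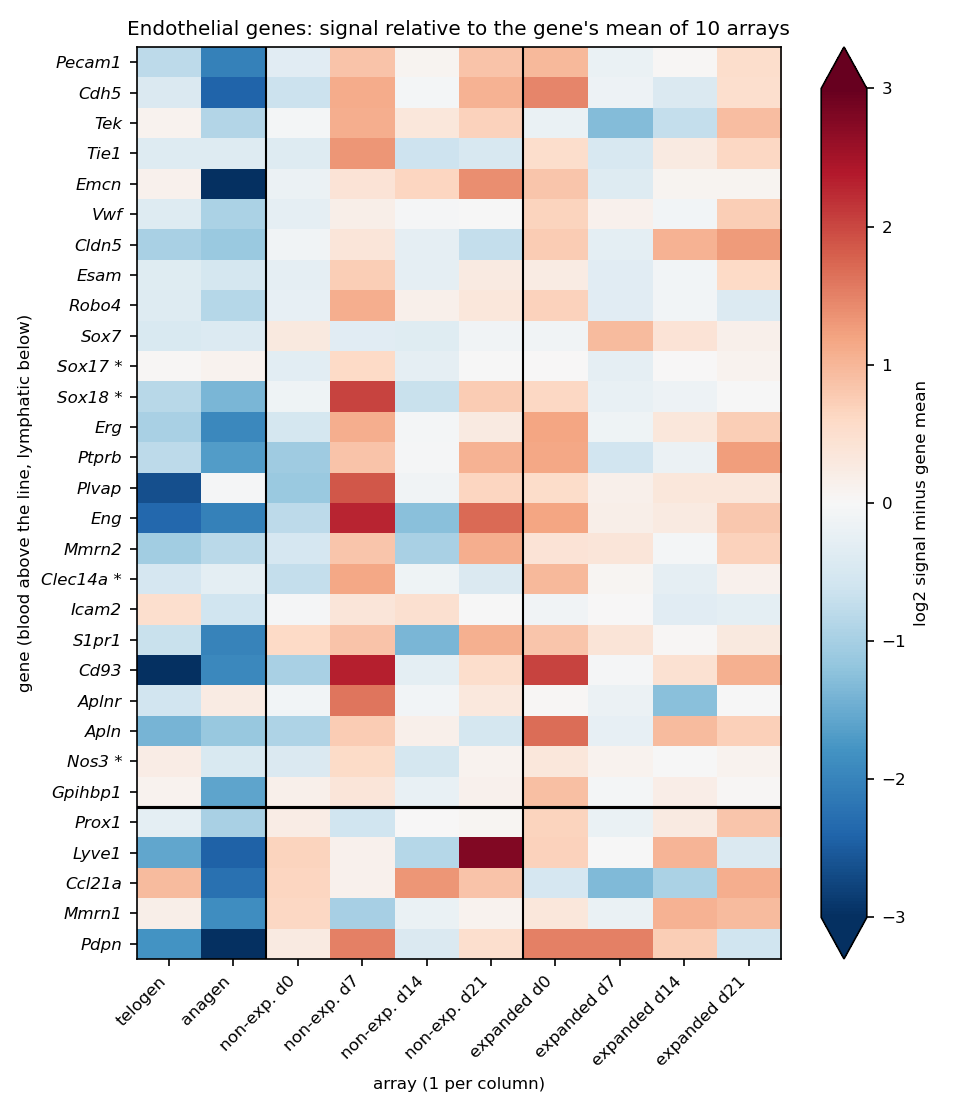
Log2 signal of the 30 measured endothelial genes on the 10 arrays, each gene shown relative to its own mean, with blood genes above the thick line and lymphatic genes below it; an asterisk marks the 4 genes below the filter. Many blood genes were reddest in the non-expanded sample of day 7 (highest array for 12 of 25) and bluest in anagen (lowest for 13 of 25).

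The first comparison set the 4 expanded arrays against the 4 non-expanded arrays of the same days. No endothelial gene passed the test: limma called 0 of 26 members at an adjusted p under 0.05, as it called 0% of all 13653 genes. At an unadjusted p under 0.05, 1 member was called (Ccl21a), against 8.8% of all genes (4.83% higher and 3.98% lower). That count was 4 without the arrays of day 0, 5 without day 7, 0 without day 14 and 1 without day 21. Over all 13653 genes, 646 were called without day 14 and 754 without day 21, against 1202 with all days. The counts over all genes without day 0 or day 7 are not given here, so those member counts have no background beside them. The fit paired the arrays by day and had 3 residual degrees of freedom, and with 4 pairs an exact permutation test cannot go below p = 0.125. Expanded skin was above non-expanded skin in 16 of the 26 members, against 52.5% of all genes. The median difference was 0.13 for the blood genes and 0.33 for the lymphatic genes, against 0.02 for all genes. The arms overlapped for all 26 members, while 2.97% of all genes had every expanded array above every non-expanded array and 1.87% had every one below. Without the arrays of day 0, 10 of 26 members were higher, the blood median was -0.36 and the lymphatic median 0.02. Without those of day 7, 19 were higher and the medians were 0.40 and 0.44. Without those of day 14 the medians were 0.01 and 0.05, and without day 21 they were 0.22 and 0.58, so these summaries rested on single days.

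Of the junction proteins and Vwf, none passed the test between the arms. Pecam1 (CD31, chr11:106654213-106715281), the junction glycoprotein used to stain vessels, gave 10.85, 12.05, 11.27 and 12.05 in non-expanded skin at days 0, 7, 14 and 21, and 12.15, 11.00, 11.22 and 11.71 in expanded skin. Expanded skin was higher on day 0 and lower on the other 3 days, and the mean difference was -0.04 ± 0.39 (SE), with a 95% interval from -0.97 to 0.90. Cdh5 (VE-cadherin, chr8:104101613-104144504), the adhesion protein of endothelial junctions, gave 11.46, 13.21, 12.05 and 13.15 in non-expanded and 13.56, 11.95, 11.68 and 12.62 in expanded skin. It too was higher in expanded skin on day 0 alone, with a mean difference of -0.01 ± 0.53 and an interval from -1.30 to 1.27. These intervals include differences of nearly 2-fold or more for each gene, so the data do not show that the arms were alike. Vwf (von Willebrand factor, chr6:125552948-125686679), the clotting protein stored in endothelial granules, gave 7.42, 7.86, 7.66 and 7.67 in non-expanded and 8.35, 7.82, 7.61 and 8.44 in expanded skin. Its expanded values were higher on days 0 and 21 and differed by -0.03 and -0.05 on days 7 and 14. The difference was 0.40 ± 0.27 (limma, adjusted p = 0.702). Cldn5, a tight junction claudin, averaged 7.17 ± 0.69 (SD, n = 4) when expanded and 6.29 ± 0.44 when not, which gave a difference of 0.88 ± 0.43 (adjusted p = 0.618). Esam, an adhesion molecule of the same junctions, had a mean of 6.81 in both arms.

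Icam2, an adhesion molecule that binds leukocyte integrins (chr11:106377656-106388139), was the only blood gene with the same sign on all 4 days. It gave 5.65, 6.05, 6.15 and 5.67 in non-expanded skin, 5.57, 5.69, 5.33 and 5.39 in expanded skin, 6.18 in telogen and 5.09 in anagen. Expanded skin was lower on each day, as for 8.1% of all genes, but values of the arms overlapped and 3 arrays lay at or below the background level. The difference was -0.39 ± 0.23 (adjusted p = 0.673).

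Among the receptors, the angiopoietin receptor Tek (TIE2, chr4:94739086-94874976) stood lower in expanded skin on 3 of 4 days. It gave 7.57, 8.73, 7.96 and 8.32 in non-expanded and 7.44, 6.33, 6.92 and 8.55 in expanded skin, against 7.75 in telogen and 6.75 in anagen. The expanded value of day 7 was the lowest of the 10, and the difference of the arms was -0.84 ± 0.45 (adjusted p = 0.645). Its relative Tie1 (chr4:118471191-118489849), which modulates TIE2 signalling, gave 6.58, 8.31, 6.35 and 6.50 in non-expanded skin, 7.50, 6.49, 7.24 and 7.60 in expanded skin and 6.59 in both telogen and anagen. The non-expanded array of day 7 stood well above the other 3 of its arm, and on the other days expanded skin was higher. The difference was 0.28 ± 0.52 (adjusted p = 0.895). Ptprb (VE-PTP), a phosphatase that acts on TIE2 and VE-cadherin, differed by 0.22 ± 0.55. The apelin pair differed in sign and did not pass the test: Apln, a peptide made by sprouting endothelium, differed by 0.90 ± 0.54 (adjusted p = 0.683) and its receptor Aplnr, below background on 1 expanded array, by -0.79 ± 0.35 (adjusted p = 0.593). S1pr1, a receptor for sphingosine 1-phosphate, differed by 0.11 ± 0.38, and Robo4, a receptor that steadies vessels, by -0.37 ± 0.39.

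Of the SOX factors, Sox7 passed the filter on low signal and Sox17 and Sox18 did not. Sox7 (chr14:63943706-63950732) was measured above background on every array, at 7.62, 6.98, 6.96 and 7.22 in non-expanded skin, 7.22, 8.27, 7.75 and 7.48 in expanded skin, 6.87 in telogen and 6.93 in anagen. Expanded skin was higher on days 7, 14 and 21 and lower on day 0, with a difference of 0.49 ± 0.32 (adjusted p = 0.699). Sox17 (chr1:4490928-4497426) stayed from 3.45 to 4.36 on the 10 arrays, under the background level on all of them. Sox18 (chr2:181669837-181671640) gave 4.72, 6.89, 4.18 and 5.61 in non-expanded skin, 5.47, 4.64, 4.69 and 4.85 in expanded skin, 4.01 in telogen and 3.49 in anagen. Of the 10 Sox18 values, 7 lay at or below background, and the non-expanded array of day 7 was the highest. The ETS factor Erg differed by 0.35 ± 0.45 between the arms (adjusted p = 0.841).

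The lymphatic genes did not share a direction. Prox1 (chr1:190118035-190170827), the factor that sets lymphatic identity, gave 7.11, 6.29, 6.88 and 6.93 in non-expanded skin and 7.55, 6.69, 7.16 and 7.72 in expanded skin, against 6.58 in telogen and 5.90 in anagen. It was higher in expanded skin on all 4 days, a pattern found in 9.18% of all genes, and the difference was 0.47 ± 0.21 (adjusted p = 0.594). Mmrn1 (multimerin 1, chr6:60944317-60989378), a secreted protein of lymphatic endothelium and platelets, gave 9.33, 7.71, 8.49 and 8.80 in non-expanded and 9.04, 8.50, 9.75 and 9.64 in expanded skin, with 8.89 in telogen and 6.85 in anagen. It was higher in expanded skin on days 7, 14 and 21, and the difference was 0.65 ± 0.30 (adjusted p = 0.601).

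Ccl21a, which encodes the chemokine that draws dendritic cells into lymphatics (chr4:42772860-42773991 in RefSeq), gave 12.25, 11.73, 12.92 and 12.45 in non-expanded and 11.10, 10.27, 10.66 and 12.68 in expanded skin, with 12.55 in telogen and 9.36 in anagen. Expanded skin was lower on days 0, 7 and 14 and higher on day 21. Its difference of -1.16 ± 0.41 had an unadjusted p of 0.026 and an adjusted p of 0.505 in limma. The mouse has near-identical copies of this gene and the probe set was placed on an unplaced contig, so its signal may come from several copies. Lyve1, a hyaluronan receptor of lymphatic endothelium and of some tissue macrophages (chr7:110850607-110862953), gave 12.49, 11.96, 10.97 and 14.60 in non-expanded and 12.52, 11.82, 12.84 and 11.39 in expanded skin. Expanded skin differed by 0.03 on day 0, -0.14 on day 7, 1.87 on day 14 and -3.21 on day 21. Pdpn (podoplanin, chr4:143267409-143299564), a glycoprotein of lymphatic endothelium, fibroblasts and basal keratinocytes, gave 12.07, 13.30, 11.38 and 12.31 in non-expanded and 13.31, 13.31, 12.55 and 11.21 in expanded skin. Neither Lyve1 (-0.36 ± 0.74, adjusted p = 0.905) nor Pdpn (0.33 ± 0.43, adjusted p = 0.842) differed between the arms beyond the spread.

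**Figure D2:**
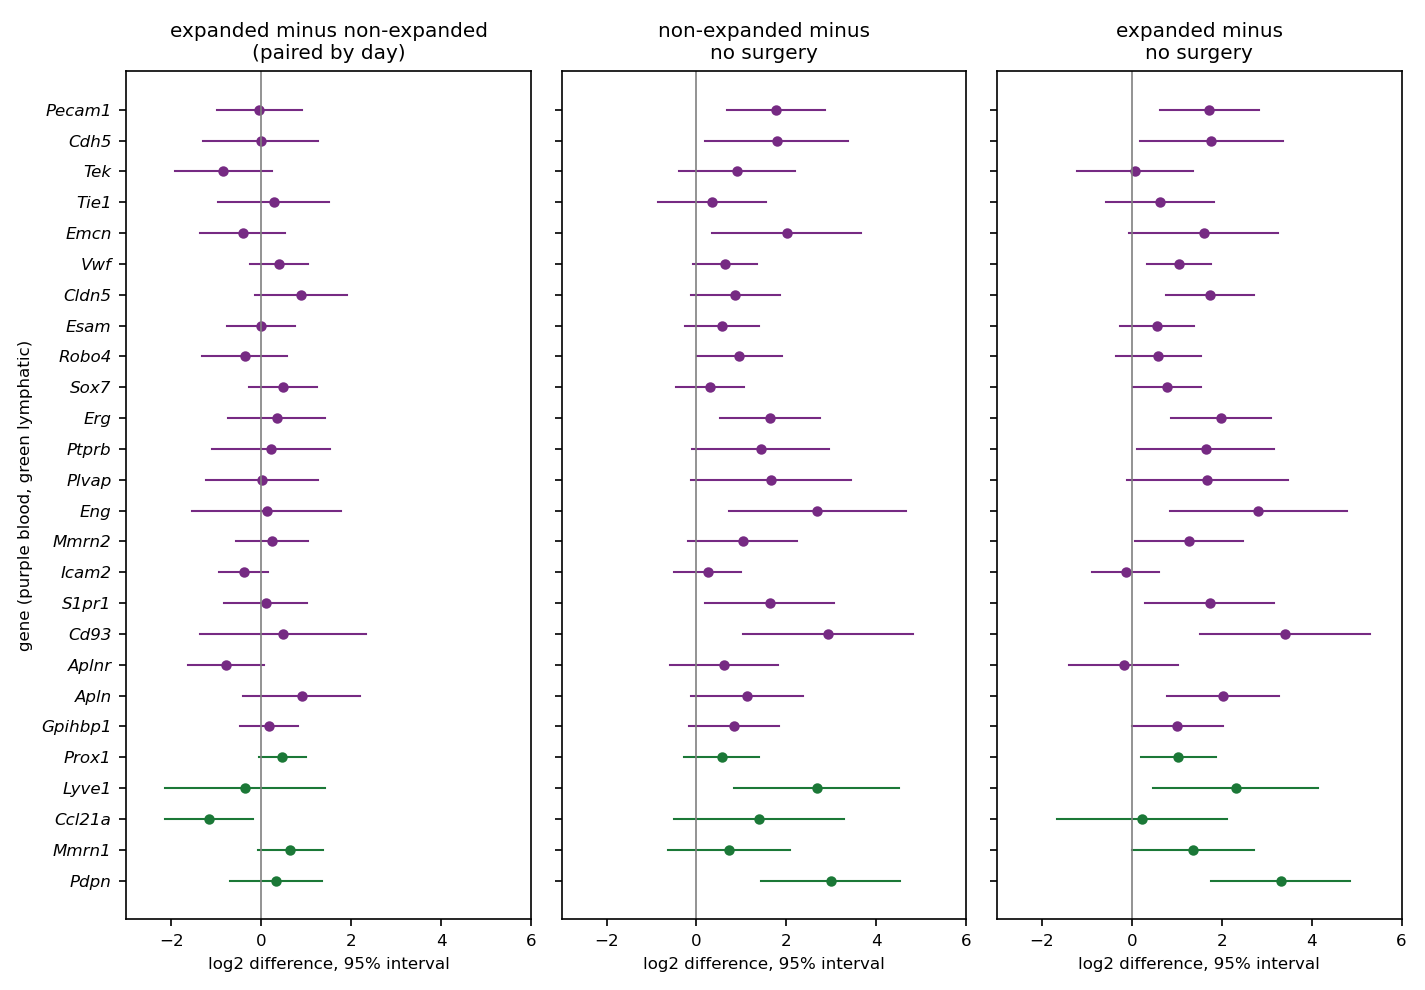
Log2 difference (point) with its 95% interval (line) for the 26 tested genes in 3 comparisons, blood genes in purple and lymphatic genes in green; both right panels use the same telogen and anagen arrays as the group without surgery. Points scatter on both sides of 0 between the arms (16 of 26 above) and lie to the right of it against skin without surgery (26 and 24 of 26).

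The blood genes differed in opposite directions on days 0 and 7. These pairs have 1 array a side, so no test was possible, and a gene was counted when it differed at least 2-fold. On day 0, expanded skin was higher for 18 of 21 blood genes, against 7238 of all 13653 genes. Of the blood genes, 8 were at least 2-fold higher, against 9.49% of all genes, and 0 were at least 2-fold lower, against 6.18%. The largest were Cd93 (3.00), a lectin-like receptor of endothelium and myeloid cells, Apln (2.59), Ptprb (2.22), Cdh5 (2.10) and Eng (1.99), the TGF-beta co-receptor endoglin. On day 7, expanded skin was lower for 20 of 21 blood genes, against 7328 of all 13653 genes. Of the blood genes, 13 were at least 2-fold lower, against 9.43% of all genes. Tek (-2.41), Cd93 (-2.36), Eng (-2.09), Tie1 (-1.82), Aplnr (-1.78) and Plvap (-1.72), a protein of the diaphragms in endothelial pores, were the furthest down, and Sox7 was 1.30 higher. The median of the blood genes was 0.92 on day 0, -1.07 on day 7, 0.41 on day 14 and -0.09 on day 21. On day 14, 3 blood genes were at least 2-fold higher (against 11.4% of all genes) and 2 lower (against 8.85%), and on day 21, 3 were higher (against 6.69%) and 1 lower (against 6.13%). The lymphatic medians were 0.03, 0.01, 1.17 and 0.23 on the 4 days.

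Each arm contributed to these day differences. Set against the other 3 non-expanded days, the day 7 array was higher for 19 of 21 blood genes, 8 of them at least 2-fold (against 8.19% of all genes), with a median of 0.87. Some markers of other cells stood higher on that array too: 11 of 13 macrophage genes, 8 of 9 fibroblast genes and 9 of 13 mural genes. Others did not: 10 of 20 skeletal muscle, 3 of 12 keratinocyte, 1 of 12 hair shaft and 0 of 11 adipocyte genes were higher. The expanded array of day 0 was higher than the other expanded days for 20 of 21 blood genes, 3 of them at least 2-fold (against 2.4% of all genes), with a median of 0.60. On that array 13 of 13 macrophage, 11 of 13 mural, 8 of 9 fibroblast and 17 of 20 skeletal muscle genes were higher too. So were 8 of 11 adipocyte genes, against 4 of 12 keratinocyte and 0 of 12 hair shaft genes. The non-expanded array of day 0, the other side of that pair, was above the other days of its arm for 4 of 21 blood genes, and 6 were at least 2-fold lower (against 7.49%), with a median of -0.77. On it 3 of 13 macrophage, 1 of 13 mural, 2 of 9 fibroblast and 5 of 20 skeletal muscle genes were higher. Of the adipocyte, keratinocyte and hair shaft genes, 3 of 11, 9 of 12 and 2 of 12 were higher. The expanded array of day 7 was above the others of its arm for 5 of 21 blood genes, and 5 were at least 2-fold lower (against 4.91%), with a median of -0.59. On that array 12 of 13 macrophage genes were higher, 2 of 13 mural genes were, and the 12 hair shaft genes stood at a mean of 11.79. Of the fibroblast, adipocyte and keratinocyte genes, 2 of 9, 3 of 11 and 5 of 12 were higher. Of the skeletal muscle genes, 0 of 20 were higher and 18 were at least 2-fold lower. Of all 13653 genes, 7050, 7072, 6420 and 6223 were higher on these arrays, in the order given. The part of these other cell markers in the endothelial values was not tested.

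**Figure D3:**
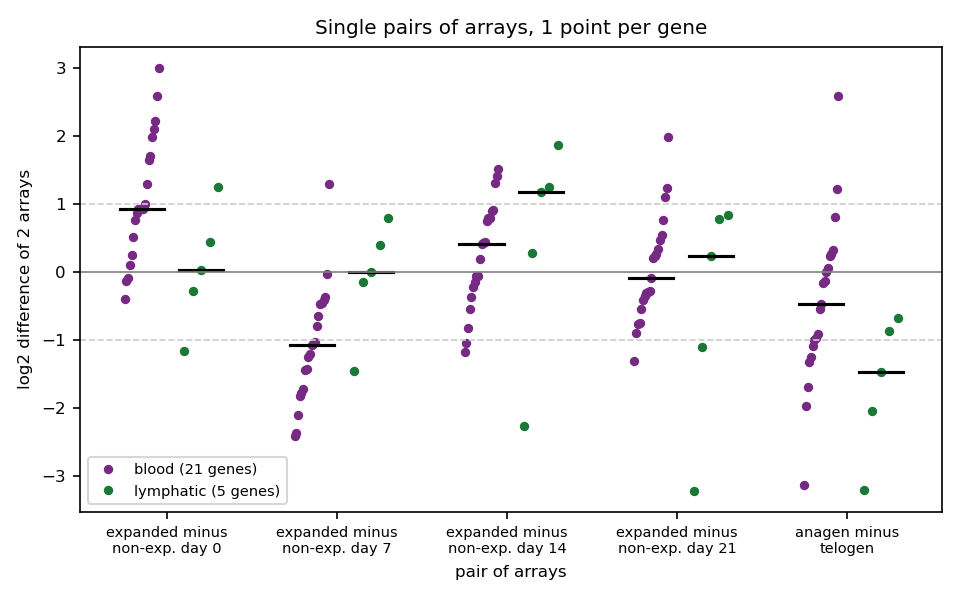
Log2 difference between 2 single arrays for each of the 21 tested blood genes (purple) and 5 lymphatic genes (green), with black bars at the medians and dashed lines at 2-fold; there is 1 array a side and no error. The blood medians were 0.92 on day 0 and -1.07 on day 7, and 5 of 5 lymphatic genes were lower in anagen than in telogen.

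The second comparison asked how skin over an unfilled expander differed from skin without surgery. All 26 members were higher over the unfilled expander, against 50.7% of all genes, and none passed the test. The error of that test takes in the spread over days within an arm and the gap between telogen and anagen. The median difference was 1.03 for the 21 blood genes and 1.38 for the 5 lymphatic genes, against 0.01 for all genes. At an adjusted p under 0.05, limma called 0 members and 0% of all genes. At an unadjusted p under 0.05 it called 10 members, all higher, against 15.7% of all genes (9.42% higher and 6.28% lower). Fewer members were called when anagen was left out, and the medians were then 0.80 for blood and 0.22 for lymphatic genes. The lowest adjusted p of a member was 0.103, for Pdpn. For 12 members, all 4 non-expanded arrays lay above both arrays without surgery, against 11.5% of all genes, and for 0 all lay below, against 7.21%. The third comparison, of expanded skin with the same 2 arrays, shares these controls, so its values are given beside and not as further support. There 24 of 26 members were higher, against 50.6% of all genes. The medians were 1.60 for blood and 1.37 for lymphatic genes. Limma called 0 members at an adjusted p under 0.05, against 0.476% of all genes (0.447% higher and 0.0293% lower). At an unadjusted p under 0.05 it called 16, all higher, against 16.4% of all genes (10.7% higher and 5.69% lower). Fewer members were called here too when anagen was left out, and the medians were then 0.81 for blood and 0.70 for lymphatic genes. For 17 members all 4 expanded arrays lay above both arrays without surgery, against 14% of all genes, and for 0 all lay below, against 8.59%. The 2 members with a lower mean in expanded skin were Aplnr (-0.18 ± 0.54) and Icam2 (-0.14 ± 0.34).

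Pdpn had the smallest p in both comparisons. Its 8 expander values, from 11.21 to 13.31, lay above telogen (10.01) and anagen (8.55). The difference from skin without surgery was 2.99 ± 0.70 for non-expanded skin (adjusted p = 0.103) and 3.31 ± 0.70 for expanded skin (adjusted p = 0.064). It passed the threshold in expanded skin when the array of day 21 was left out (adjusted p = 0.0383). Against telogen alone the Pdpn difference was 2.25 in non-expanded and 2.58 in expanded skin, and against anagen alone 3.72 and 4.05. Cd93 (chr2:148436651-148443535) gave 7.53, 10.83, 8.21 and 9.03 in non-expanded skin, 10.53, 8.47, 8.95 and 9.57 in expanded skin, 5.36 in telogen and 6.58 in anagen. All 8 expander arrays were above both arrays without surgery, by 2.93 ± 0.85 in non-expanded skin (adjusted p = 0.153) and 3.41 ± 0.85 in expanded skin (adjusted p = 0.0901), but telogen lay below the background level, so these differences may be compressed. Eng (chr2:32646595-32682669), whose promoter window is printed above, gave 9.94, 13.02, 9.49 and 12.44 in non-expanded skin, 11.93, 10.92, 11.02 and 11.54 in expanded skin, 8.37 in telogen and 8.70 in anagen. The spread was wider in non-expanded (SD 1.76, n = 4) than in expanded skin (SD 0.47, n = 4), and the differences from no surgery were 2.69 ± 0.89 (adjusted p = 0.196) and 2.81 ± 0.89 (adjusted p = 0.154).

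Lyve1 stood at 10.27 in telogen and 9.40 in anagen, below all 8 expander arrays, with differences of 2.67 ± 0.83 (adjusted p = 0.17) and 2.31 ± 0.83 (adjusted p = 0.204). Pecam1, at 10.41 in telogen and 9.17 in anagen, was also below all 8, with differences of 1.76 ± 0.49 (adjusted p = 0.14) and 1.73 ± 0.49 (adjusted p = 0.124). Apln (chrX:48025146-48034853) gave 4.98, 6.67, 6.05 and 5.38 in non-expanded skin, 7.57, 5.65, 6.85 and 6.61 in expanded skin, 4.51 in telogen and 4.78 in anagen. Both arrays without surgery and 2 non-expanded arrays were at or below the background level, so its differences of 1.13 ± 0.56 and 2.02 ± 0.56 (adjusted p = 0.36 and 0.116) may be compressed. Across the whole set, 11 of 26 members had all 8 expander arrays above both arrays without surgery, against 8.1% of all genes, and 0 had all 8 below, against 4.15%. The 11 were Pecam1, Vwf, Cldn5, Esam, Sox7, Erg, Eng, Cd93, Apln, Lyve1 and Pdpn. Cldn5 lay close to the background level in telogen (5.49) and below it in anagen (5.36), so its differences may be compressed too.

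The size of the differences depended on which array without surgery was used. With 1 array a stage, hair stage and array cannot be told apart. With telogen alone as skin without surgery, the non-expanded mean was above it for 22 of 26 members, against 53.5% of all genes. The expanded mean was above it for 23 of 26, against 54.9%. The blood medians were then 0.80 and 0.81 and the lymphatic medians 0.22 and 0.70. Emcn, the sialomucin endomucin of veins and capillaries, was 0.45 ± 0.58 above telogen in non-expanded and 0.04 ± 0.58 in expanded skin. With anagen alone, the blood medians were 1.19 in non-expanded and 1.81 in expanded skin, and the lymphatic medians 2.98 and 2.38. Emcn was 3.57 above anagen in non-expanded and 3.16 in expanded skin. Erg was 2.12 above anagen in non-expanded skin and 2.47 above it in expanded skin. Each such fit rests on a single array of 1 hair stage, whose spread was taken from the other groups.

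**Figure D4:**
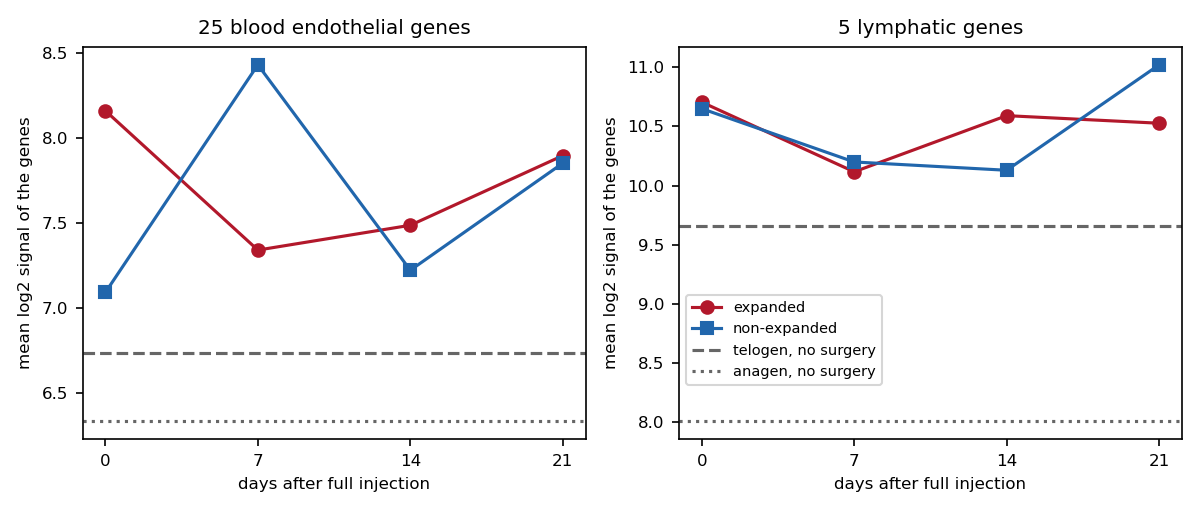
Mean log2 signal of 25 blood (left) and 5 lymphatic genes (right) by days after full injection, 1 array a point, for expanded (red circles) and non-expanded skin (blue squares); grey lines mark the telogen (dashed) and anagen (dotted) arrays without surgery. The blood means of the arms crossed between day 0 (8.16 expanded, 7.09 non-expanded) and day 7 (7.34 and 8.43), and all 8 stood above telogen at 6.74.

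Between the 2 arrays without surgery, the lymphatic genes were lower in anagen for 5 of 5 and at least 2-fold lower for 3, against 20.4% of all genes. The difference was -3.20 for Ccl21a, -2.04 for Mmrn1 and -1.46 for Pdpn. Of the 21 blood genes, 7 were at least 2-fold lower in anagen and 2 at least 2-fold higher, against 23.5% of all genes higher. Emcn (-3.12) and Cdh5 (-1.97) differed most downward, as did Gpihbp1 (-1.68), which anchors lipoprotein lipase in capillaries. The 2 that were higher were Plvap (2.59) and Cd93 (1.22), and both lay below the background level in telogen (5.26 and 5.36), so these differences may be compressed. These are differences of 1 array from 1 array, with no test.

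Over the 21 days, straight lines called no gene at an adjusted p under 0.05 in either arm or between them (limma, 0% of all genes each). At an unadjusted p under 0.05, Pdpn was the only member in expanded skin, against 2.48% of all genes (1.18% higher and 1.3% lower), with a change of -2.12 ± 0.83 over 21 days (adjusted p = 1). Emcn was the only member in non-expanded skin, against 3.63% (1.98% higher and 1.64% lower). It gave 9.86, 10.43, 10.66 and 11.42 on the 4 non-expanded days, a change of 1.47 ± 0.54 (adjusted p = 0.991), and 10.86, 9.63, 10.12 and 10.12 in expanded skin. The slopes of Emcn differed by -1.99 ± 0.77 (adjusted p = 0.999), the only member past an unadjusted 0.05, against 1.22% of all genes (0.542% higher and 0.674% lower). The fitted line went up for 11 of 26 members in expanded skin (50.8% of all genes) and for 18 in non-expanded skin (50.3%), and the slope was greater in expanded skin for 8 (50.4%). Without the arrays of day 0 these counts were 20, 9 and 21, and without those of day 21 they were 4, 14 and 5. The members called at an unadjusted p under 0.05, 1 in each of the 3, ranged from 0 to 4 in expanded skin, from 0 to 3 in non-expanded skin and from 0 to 5 for the difference when a day was left out. In the fits with the most members called, the calls over all genes rose too. They were 890 in expanded skin without day 0, and 1092 in non-expanded skin and 506 for the difference without day 7. With all days they were 339, 495 and 166. The blood median of that difference was -0.62 with all days and 1.79 without the arrays of day 0, so its sign rested on that day.

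The blood genes varied together across arrays to different degrees. Over the 10 arrays, which share groups and days, the correlation of a gene with the mean of the other tested blood members was 0.972 for Erg, 0.953 for Pecam1 and 0.927 for Eng, and 0.127 for Icam2 and 0.0961 for Sox7. Among lymphatic genes it was 0.803 for Pdpn, 0.659 for Lyve1, 0.527 for Prox1, 0.343 for Mmrn1 and 0.309 for Ccl21a. The 10 genes outside the lists most like the blood mean were Trim35, Hip1, Lsp1, H2-Q4, Septin8, Adgra2, Anxa5, Plxnd1, Nid1 and Poglut3, with r from 0.947 to 0.967. These correlations are given as description, since 10 arrays of differing groups set them.

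Other endothelial genes were taken from lists by role. Among 25 tested further endothelial genes, 1 rose in expanded skin against skin without surgery and none fell, against 0.447% and 0.0293% of all genes: Nostrin, which binds endothelial nitric oxide synthase. It gave from 8.08 to 9.04 on the 4 expanded arrays, 6.61 in telogen and 5.24 in anagen, a difference of 2.56 ± 0.39 (adjusted p = 0.0297). The anagen value lay below the background level. That call was lost without the expanded array of day 0 (adjusted p = 0.0852), day 7 (0.0601) or day 14 (0.0832), or without anagen (0.0617). Among 11 tested genes of sprouting, 1 rose, against the same 0.447% of all genes: Angpt2, the angiopoietin that loosens vessels and a ligand of TIE2. It gave 9.30, 9.63, 8.67 and 8.80 in non-expanded skin, 10.89, 9.97, 10.59 and 9.85 in expanded skin, 6.77 in telogen and 6.29 in anagen. Angpt2 was 3.80 ± 0.39 higher in expanded skin than without surgery (adjusted p = 0.00647, from 0.00195 to 0.0396 over the alternatives). All 4 expanded values were above all 4 non-expanded values as well, by 1.22 ± 0.31 (adjusted p = 0.37).

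No other endothelial list held a gene that passed. In the comparison of the arms, 0 passed among 25 further endothelial, 11 arterial and Notch, 7 venous adhesion, 10 capillary, 11 sprouting and 10 further lymphatic genes. The medians were -0.06, 0.11, -0.11, 0.13, 0.10 and 0.33 in that order. The smallest unadjusted p among arterial and Notch genes belonged to the ligand Jag1 (0.70 ± 0.22, adjusted p = 0.462) and the receptor Notch1 (0.97 ± 0.31, adjusted p = 0.472). Of the adhesion molecules that capture leukocytes, P-selectin (Selp) had a difference of -1.42 ± 0.46 (adjusted p = 0.478) and Vcam1 of 0.92 ± 0.33 (adjusted p = 0.522). Against skin without surgery, the tested sprouting genes were higher in expanded skin for 11 of 11, with a median of 1.10. The arterial and Notch genes were higher for 2 of 11, with a median of -0.19. In the same comparison, 22 of 25 further endothelial genes (median 0.86) and 6 of 7 venous adhesion genes (median 1.24) were higher. So were 9 of 10 capillary genes (median 0.59) and 9 of 10 further lymphatic genes (median 0.67). Of all genes, 50.6% were higher, with a median of 0.01. Against telogen alone, 9 of 11 sprouting genes (median 1.43) and 5 of 11 arterial and Notch genes (median -0.10) were higher in expanded skin. Against anagen alone these counts were 11 (median 1.26) and 5 (median -0.25). The arterial and Notch count was thus 5 against either array alone and 2 against the mean of both.

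Some markers of other cells were higher beside the endothelial genes, and others were not. Macrophage genes were higher than in skin without surgery for 13 of 13 in each arm, with medians of 3.36 in non-expanded and 2.93 in expanded skin, and 10 of 13 had all 8 expander arrays above both. Their mean level ranged from 10.56 to 12.70 in non-expanded skin and from 10.22 to 11.97 in expanded skin, against 9.16 in telogen and 7.96 in anagen. None of the 13 lay below background on all arrays. Mural genes, of the pericytes and smooth muscle around vessels, were higher for 10 of 13 in each arm, with medians of 0.61 and 0.62 and means from 9.08 to 9.93 in non-expanded skin, from 9.08 to 10.06 in expanded skin, 9.20 in telogen and 8.50 in anagen. Fibroblast genes were higher for 9 of 9 in each arm, with medians of 0.82 and 0.83. In expanded skin against skin without surgery, limma called 1 macrophage and 1 fibroblast gene higher at an adjusted p under 0.05, against 0.447% of all genes. Against skin without surgery, keratinocyte genes were higher for 9 of 12 in non-expanded and 8 of 12 in expanded skin (medians 0.59 and 1.30). Adipocyte genes were higher for 4 and 2 of 11 (medians -0.33 and -0.66). Hair shaft genes were higher for 0 of 12 in each arm (medians -6.12 and -4.19). Skeletal muscle genes were higher for 18 and 11 of 20, and for 6 and 2 of 20 against telogen alone. They had means from 15.02 to 16.28 in non-expanded and from 12.63 to 15.57 in expanded skin, 16.28 in telogen and 12.31 in anagen. The part of these other cell markers in the endothelial differences was not tested. Eng, Cd93 and Lyve1 are also made by macrophages, and Pdpn by fibroblasts and keratinocytes.

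**Figure D5:**
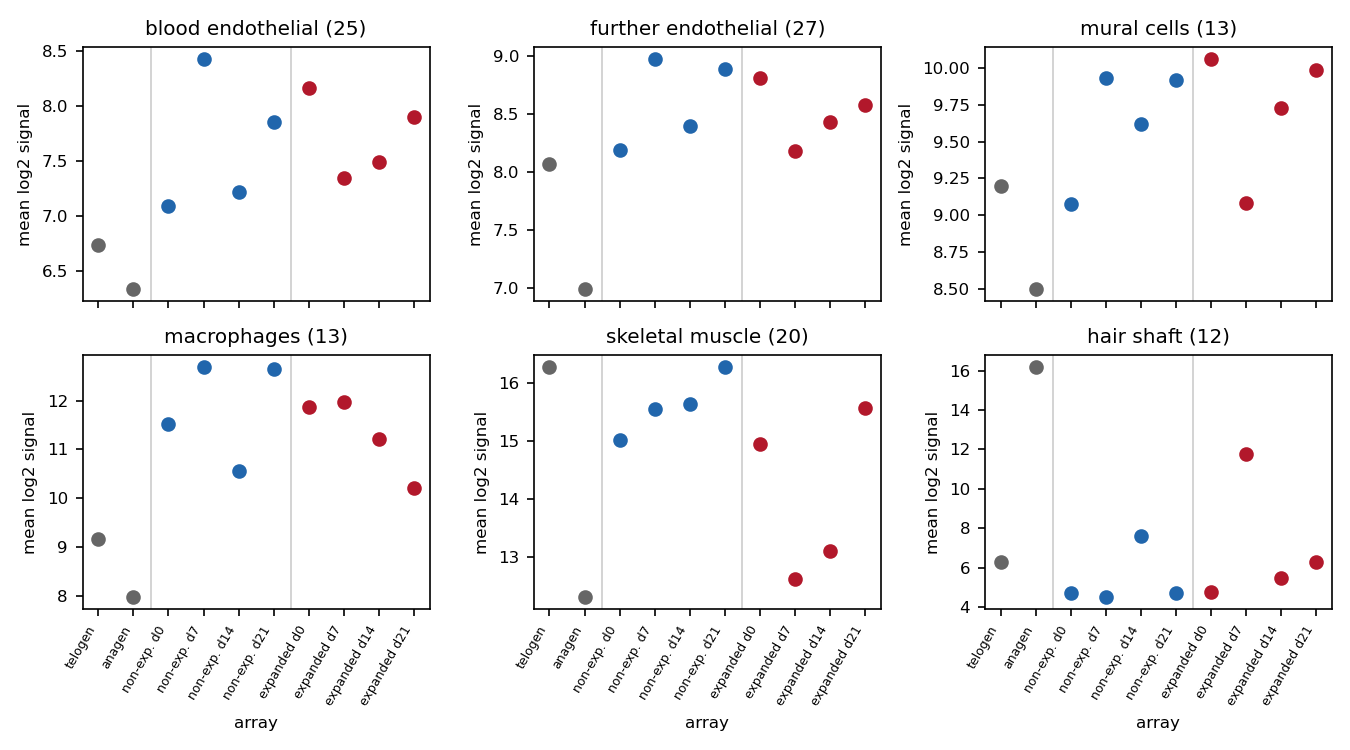
Mean log2 signal of blood endothelial, further endothelial, mural, macrophage, skeletal muscle and hair shaft genes on each of the 10 arrays (grey without surgery, blue non-expanded, red expanded; the number of genes is in each panel title, and the vertical axes differ and do not start at 0). The non-expanded array of day 7 was highest for blood endothelial (8.43) and macrophage genes (12.70), and the expanded array of day 7 was far up for hair shaft genes (11.79) and low for muscle genes (12.63).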

How the data were processed

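The members and the gene lists were chosen with earlier results of these data known. Per the labels' protocols, whole skin RNA (Qiagen RNeasy Protect Mini) was labelled with the Affymetrix WT PLUS kit and biotin. The deposited table holds 28846 probe sets, taken as log2 signals. The log base is inferred from the platform and the range (1.88 to 19.88), and background correction and normalization are not given in the sources used here. Since 586 probe sets exceeded 16, the most a 16-bit scanner can give in log2, on some array, differences may be stretched. The submitters' processing notes name mm10. Symbols came from the platform's annotation, and all 30 members matched RefSeq (GRCm38.p6) by gene identifier. Where a gene had several probe sets (55 genes, no member among them), that of highest mean was used. Genes with a mean under the 30th percentile (4.86) were removed.

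Differences were fitted with limma 3.58.1 (lmFit, eBayes; R 4.3.3), two-sided, with Benjamini-Hochberg adjustment over 13653 genes at 0.05. The comparison of the arms used day as a block, since the labels number the time points alike. Deviations of same-day arrays correlated at -0.133, -0.171, -0.104 and 0.358 (days 0, 7, 14, 21), so the pairing rests on the labels. Comparisons with skin without surgery used all 10 arrays in 3 groups (7 residual degrees of freedom), and slopes the 8 expander arrays. Every array value is given for members with the largest differences among those with 1 sign on all days or without overlap (up to 5 a comparison), for the lymphatic genes and for Pecam1, Cdh5, Tek, Tie1, Vwf, Sox7, Sox17 and Sox18. Emcn was added after its slopes were seen. From other lists, genes with the smallest p are named. Normalization, centring, filter, variance trend, probe set choice, block and leaving out arrays were varied. Scripts were tested on simulated data. The number of arrays limits the precision.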

Additional observations from a re-analysis of the deposited data

Results flagged for a closer look

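Of 64 groups of 4 arrays examined (each measured member, and the blood and lymphatic means, in each arm), 1 held a value that stood apart from the others by more than Dixon's 95% critical value, and chance alone gives about 1 in 20. Tie1 in non-expanded skin read 8.31 on day 7, against 6.35 to 6.58 on the other 3 days, a gap of 0.882 of the range. The same array was the highest of its arm for 19 of 25 blood genes, a count without a share over all genes.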

How the results depend on the processing

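With 1 array a day in each arm, 0 of 26 members passed in the comparison of the arms under every alternative run, and without the replicate block (pairing by day) 2 genes passed over all genes and 0 members. At an unadjusted p under 0.05, 2 members were called without the block in place of 1 (Cldn5 beside Ccl21a), and no adjusted call of a named gene changed. In that comparison the signs of values near 0 turned: Esam was 0.0060 and Plvap -0.012 after quantile normalization, and Cdh5 was 0.0050 and Esam 0.013 after centring. Without the filter, 33 genes in place of 65 passed in expanded skin against no surgery, and the blood median was 1.16 with the low genes included. After quantile normalization the anagen minus telogen medians were -0.27 (blood) and -1.66 (lymphatic). Of 1240 values of single genes under alternatives, 1169 kept their direction and side of the threshold, 35 turned sign, 32 passed only under an alternative and 4 lost a call (Nostrin). The cause was not tested.

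Leaving out 1 array or day at a time, the number of genes passing ranged from 0 to 1 between the arms. It ranged from 0 to 2645 for non-expanded skin against no surgery (2645 without telogen, 112 without day 14) and from 5 to 1850 for expanded skin (1850 without telogen, 8, 43 and 5 without days 0, 7 and 14). Members passing ranged from 0 to 7 in each of the latter, and the lymphatic medians from 0.22 to 2.98 and 0.70 to 2.38, with the low end without anagen and the high end without telogen. The blood median for expanded skin ranged from 0.81 to 1.81. Slopes over days ranged from -1.10 to 0.93 (blood) and -0.59 to 1.55 (lymphatic) in expanded skin, from -0.62 to 0.58 and -1.04 to 1.08 in non-expanded skin, and from -1.48 to 1.79 and -0.11 to 0.38 for their difference. Between the arms, signs turned for Cd93 (-0.36 to 1.43), Cdh5 (-0.72 to 0.40), Eng (-0.49 to 0.87), Erg (-0.10 to 0.87), Esam (-0.18 to 0.35), Gpihbp1 (-0.022 to 0.37), Lyve1 (-1.11 to 0.58), Pecam1 (-0.48 to 0.30), Plvap (-0.52 to 0.60), Ptprb (-0.45 to 0.76), S1pr1 (-0.33 to 0.40) and Tie1 (-2.2e-05 to 0.97). Against no surgery they turned in non-expanded skin for Ccl21a (-0.21 to 2.98), Gpihbp1 (-0.0071 to 1.68), Icam2 (-0.30 to 0.79), Mmrn1 (-0.30 to 1.74) and Tie1 (-0.11 to 0.54). In expanded skin they turned for Aplnr (-0.59 to 0.22), Ccl21a (-1.38 to 1.82), Icam2 (-0.68 to 0.41) and Tek (-0.44 to 0.56). The slope of Emcn in expanded skin ranged from -1.10 to 0.72 and that of Pdpn in non-expanded skin from -1.49 to 0.060.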
